A study of Rattus norvegicus with 8 samples.

Results

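The measurements concern the genes of the NF-kB subunits and of their inhibitors in rat alveolar macrophages of the NR8383 line, which came from the lavage of a normal lung, after exposure to zinc oxide (ZnO). The genes were a list of 10: the subunits Rela, Rel, Relb, Nfkb1 and Nfkb2, the IkB proteins Nfkbia, Nfkbib, Nfkbie and Nfkbiz, and the ubiquitin-editing enzyme Tnfaip3. A probe belonged to the group when the transcript accession that the array gives for it is a RefSeq transcript of a listed gene. This rule found 7 of 45598 probes, for 6 of the 10 genes; Rel, Relb, Nfkbiz and Tnfaip3 had no probe matched in this way and were not analysed here. The cultures were given ZnO for 4 h at either of 2 doses, 4 or 16 µg/mL, with 4 arrays per dose that the series calls biological replicates, all unmodified cultures of 1 cell line. The labels give 20 passages for the 4 µg/mL cultures and 200 for the 16 µg/mL cultures, and each dose lay on its own slide, so dose, slide and passage number cannot be told apart. The untreated cells that the series mentions were not analysed here, so every comparison is 16 µg/mL minus 4 µg/mL.

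NF-kB is a dimer of Rel-family subunits that switches on genes of inflammation and survival. In resting macrophages IkB proteins hold most of it in the cytoplasm. When a receptor or a stress activates the IKK kinases, IkB is phosphorylated, marked with ubiquitin and degraded, and the freed dimer enters the nucleus. Nfkbia, the gene of IkB alpha, is itself a textbook target of NF-kB, so that newly made inhibitor ends the response; Nfkbib (IkB beta) and Nfkbie (IkB epsilon) act more slowly. Rela carries the activation domain of the classical dimer, Nfkb1 encodes its DNA-binding partner as a longer precursor, and Nfkb2 encodes the precursor used by the non-canonical pathway.

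The starts of the 4 genes whose signal differed between the doses are shown first, because NF-kB is known to bind near the starts of some of its own subunit and inhibitor genes. Each run is the 150 bases before the annotated transcription start, 5′ to 3′ on the gene's own strand, from RefSeq on build GRCr8; a window was found for 9 of the 10 genes. Capitals mark a match to the NF-kB motif GGGNNTTNCC, searched on both strands.
Nfkbia (chr6:78597073-78597222, minus strand): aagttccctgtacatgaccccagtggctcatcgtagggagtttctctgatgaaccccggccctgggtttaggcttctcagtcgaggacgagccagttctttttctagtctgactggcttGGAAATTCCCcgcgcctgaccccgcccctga
Nfkb2 (chr1:255108224-255108373, plus strand): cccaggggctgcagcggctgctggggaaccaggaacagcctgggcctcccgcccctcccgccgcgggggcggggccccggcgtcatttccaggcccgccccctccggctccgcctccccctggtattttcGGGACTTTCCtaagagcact
Nfkbib (chr1:93181388-93181537, minus strand): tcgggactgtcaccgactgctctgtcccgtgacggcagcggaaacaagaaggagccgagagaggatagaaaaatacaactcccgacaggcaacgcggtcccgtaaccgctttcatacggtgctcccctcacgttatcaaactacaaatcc
Rela (chr1:212354186-212354335, plus strand): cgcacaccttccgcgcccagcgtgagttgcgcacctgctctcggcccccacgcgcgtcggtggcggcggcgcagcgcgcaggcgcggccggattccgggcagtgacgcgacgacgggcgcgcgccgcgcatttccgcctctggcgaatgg

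In windows from 250 bases before to 50 bases after the start, the motif was in 5% of 33469 windows of the same length. Among the 6 measured genes it was found for Nfkbia, 31 to 22 bases before the start and on the opposite strand, for Nfkb2, 20 to 11 bases before the start, and for Nfkb1, at bases 4 to 13 after the start. No match lay in the windows of Rela, Nfkbib and Nfkbie. Of the genes without a matched probe, the windows of Rel, Nfkbiz and Tnfaip3 each held at least 1 match. The core of the metal response element, the site of the zinc-sensing factor MTF-1 (TGCACNC or TGCGCNC, both strands), was in 24.2% of windows. Among them were those of Rela and Rel (2 matches each), Nfkb1 and Nfkbia. It did not overlap the NF-kB motif in any of these genes. The median GC content of all windows was 51.7%, against 76.7% for Rela, 77.3% for Rel, 71.3% for Nfkb1 and 59.7% for Nfkbia. The shares of 5% and 24.2% are over all windows, not over windows of like GC content. A match describes the letters of the window and does not show binding.

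The arrays report the brightness of labelled RNA on each probe. Levels below are log2 of the processed signal relative to the 75th percentile of the same array, so a level of 1 is 2 times that percentile; a level says nothing about another gene, since probes differ in brightness. Each array had 31.5% to 39.3% of its probes well above background. The 6 probes that stand for the genes passed this mark on every array. The 75th percentile was 313 to 516 at 4 µg/mL. At the higher dose it was 374 and 381 on replicates 1 and 4 but 151 and 190 on replicates 2 and 3, and several genes below divide in the same way. Of the 14 macrophage markers with a probe 12 were well above background on all 8 arrays, while Marco and Adgre1 were on none. The summed level of a list is the log2 of the summed signals of its markers, so the brightest probes lead it. For the macrophage list it was 8.41 to 8.65 at the lower and 8.44 to 8.82 at the higher dose. There Lyz2 (means 7.35 and 7.37) and Tyrobp (6.88 and 7.14) were among the brightest, so it does not show how dimmer markers moved. The epithelial markers had 0 of 8 well above background on all arrays, the fibroblast markers 1 of 6 (Dcn), the lymphocyte markers 1 of 4 (Lck) and the neutrophil markers 1 of 4 (Camp). The summed neutrophil level was -0.57 to -0.19 at the lower dose and -1.61 to -0.79 at the higher, with Elane and Ngp at background on every array; the summed levels of the other lists overlapped between the doses. The part of the neutrophil markers in the results below was not tested.

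Of the 6 measured genes 3 were called higher at 16 µg/mL (Nfkbib, Rela and Nfkb2), 1 was called lower (Nfkbia) and 2 did not pass the test (Nfkb1 and Nfkbie), by limma with Benjamini-Hochberg adjustment over 13460 genes. Of all genes tested 41.7% were called, 19.8% higher and 21.9% lower, and read against that background 4 of 6 is not a result about the group. The median difference of the 6 was 0.31, against 0.0042 over all genes. The doses did not overlap for 3 of the 6 genes, Nfkbib and Rela higher and Nfkbia lower; over all genes this held for 18.5% higher and 21.4% lower, or 39.9% in all. The inhibitors divided, with Nfkbib up and Nfkbia down, while the called subunits were both higher.

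**Figure D1:**
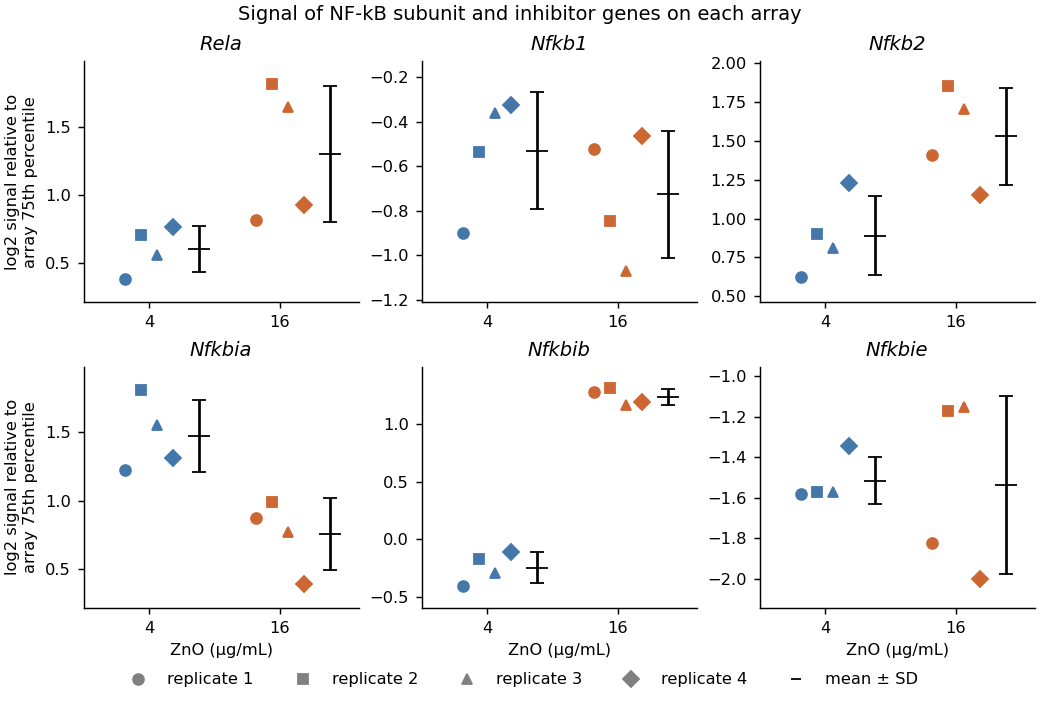
Log2 signal of each measured NF-kB gene relative to the 75th percentile of its array (vertical axis, scaled per panel) at 4 and 16 µg/mL ZnO; symbols are the 4 replicates of a dose and the bar is the mean ± SD. The doses are far apart for Nfkbib, apart in the other direction for Nfkbia, and overlap for Nfkb1, Nfkb2 and Nfkbie; for Rela they are narrowly apart, at 0.76 and 0.82.

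Nfkbib, the inhibitor that holds NF-kB dimers more lastingly than IkB alpha, had the largest difference of the group. Its levels (probe A_44_P186860) were -0.40, -0.17, -0.29 and -0.11 on replicates 1 to 4 at 4 µg/mL, and 1.27, 1.31, 1.16 and 1.18 at 16 µg/mL. All 4 values at the higher dose lay above all values at the lower dose. The rise was 1.47 on the log2 scale, or 2.78-fold (SE 0.12, 95% confidence interval 1.21 to 1.73, adjusted p = 7.77e-06), which ranked at the 96.5th percentile of the differences of all genes. The SD within a dose was 0.13 at 4 µg/mL and 0.071 at 16 µg/mL. At the higher dose the scaled values of all 4 arrays lay between 1.16 and 1.31, those of replicates 2 and 3 included. Before scaling the processed signals of Nfkbib were 390, 278, 391 and 398 at 4 µg/mL, and 905, 373, 424 and 866 at 16 µg/mL. The unscaled signal of replicate 2 at the higher dose thus lay within the range of the lower dose, and that of replicate 3 just above it.

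Nfkbia, the fast-acting inhibitor, went the other way. Its levels (probe A_44_P261450) were 1.23, 1.81, 1.55 and 1.31 at 4 µg/mL, and 0.87, 0.99, 0.77 and 0.39 at 16 µg/mL. Every array of the higher dose was below every array of the lower dose, with replicate 4 the lowest. Nfkbia fell by 0.72, or 1.64-fold (SE 0.17, 95% confidence interval -1.10 to -0.34, adjusted p = 0.00778), at the 18.5th percentile of all differences. Nfkbia was called lower in each alternative run, from median scaling (-0.55, adjusted p = 0.0403) to scaling on the spike-in controls (-1.54, adjusted p = 0.00246).

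Nfkbie, the third IkB gene measured, differed by -0.021 (SE 0.22, 95% confidence interval -0.50 to 0.46, adjusted p = 0.945). At 4 µg/mL its levels (probe A_44_P428507) were -1.58, -1.57, -1.57 and -1.34, and at 16 µg/mL they were -1.82, -1.17, -1.15 and -2.00. The values at the higher dose lay on both sides of those at the lower dose: the arrays with the low 75th percentile, replicates 2 and 3, were above all of them and replicates 1 and 4 below all of them. Without replicates 2 and 3 of the higher dose the difference was -0.40 (adjusted p = 0.103) and without replicates 1 and 4 it was 0.35 (adjusted p = 0.0998), neither past the threshold. The interval does not show that Nfkbie was stable. The gene table lists Slc35b2, the name of its neighbour, as an older name of Nfkbie.

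Among the subunits Rela, which carries the activation domain, was called higher, but narrowly. Its levels (probe A_64_P046388) were 0.38, 0.70, 0.56 and 0.76 at 4 µg/mL, and 0.82, 1.82, 1.65 and 0.93 at 16 µg/mL. The doses did not overlap, yet replicates 2 and 3 of the higher dose stood well above replicates 1 and 4. The difference was 0.70, or 1.63-fold (SE 0.23, adjusted p = 0.0294). Before scaling the processed signals of Rela were 671, 509, 706 and 726 at 4 µg/mL, and 659, 532, 596 and 725 at 16 µg/mL. These unscaled signals overlapped throughout, so the rise of Rela is a rise relative to the other genes of the array. Without replicates 2 and 3 of the higher dose it was 0.27 (adjusted p = 0.191). The call was also lost without replicate 1, 2 or 3 of the lower dose or replicate 2 or 3 of the higher dose, each left out alone (0.53 to 0.74, adjusted p of 0.0507 to 0.0815).

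Nfkb2, the precursor of the non-canonical subunit, was higher by a like amount. Its levels (probe A_42_P658264) were 0.62, 0.90, 0.81 and 1.23 at 4 µg/mL, and 1.41, 1.85, 1.71 and 1.15 at 16 µg/mL. Replicate 4 of the higher dose was just below replicate 4 of the lower dose, so the doses overlapped in that pair of arrays, and replicates 2 and 3 were again the highest. The difference was 0.64, or 1.56-fold (SE 0.18, adjusted p = 0.0173). The call was lost without replicate 1 of the lower dose (0.55, adjusted p = 0.0539) and without replicates 2 and 3 of the higher dose (0.39, adjusted p = 0.127).

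Nfkb1, the DNA-binding partner of Rela, did not pass the test. Its brighter probe (A_44_P494130) was at -0.90, -0.54, -0.36 and -0.33 at 4 µg/mL and at -0.52, -0.85, -1.07 and -0.47 at 16 µg/mL. The ranges overlapped, with replicates 2 and 3 the lowest at the higher dose, the reverse of their place for Rela, Nfkb2 and Nfkbie. The difference was -0.20 (SE 0.19, 95% confidence interval -0.61 to 0.22, adjusted p = 0.421). The other Nfkb1 probe (A_44_P1157367) was well above background on 2 of 4 arrays at each dose and was not tested; its means were -4.34 ± 0.85 and -4.29 ± 0.41 (SD, n = 4) at 4 and 16 µg/mL.

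**Figure D2:**
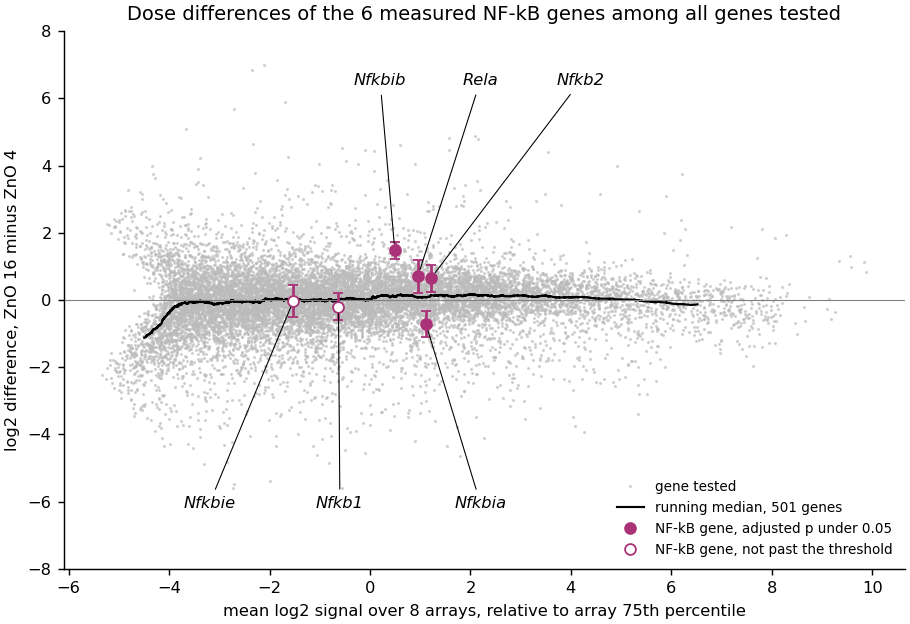
Log2 difference between the doses (vertical axis) against mean log2 signal over 8 arrays (horizontal axis) for all 13460 genes tested (grey), with the running median in black and the 6 NF-kB genes with 95% confidence intervals. Nfkbib stands above and Nfkbia below the running median, and Nfkb1 and Nfkbie lie on or near it.

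Signal on an array can depend on how bright a gene is, so each gene was set beside the 500 genes nearest to it in mean level. Their median difference was 0.086 for Nfkbib, 0.087 for Rela, 0.13 for Nfkb2, 0.078 for Nfkbia, 0.010 for Nfkb1 and 0.0052 for Nfkbie. These shifts were small beside the 4 called differences. With cyclic loess, a setting added after seeing the data, which removes a trend with brightness, Nfkbib differed by 1.41, Rela by 0.62, Nfkb2 by 0.55 and Nfkbia by -0.81, all still past the threshold.

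Scaling decides where zero lies. Without scaling the median gene was at -0.75, and with scaling on the spike-in controls, RNAs added in fixed amounts during labelling, at -0.82. On the spike-in scale Nfkbib differed by 0.65 (adjusted p = 0.157), Rela by -0.13 (adjusted p = 0.762), Nfkb2 by -0.19 (adjusted p = 0.657), Nfkbia by -1.54, Nfkb1 by -1.02 (adjusted p = 0.0596) and Nfkbie by -0.85 (adjusted p = 0.0672). The rises of Rela and Nfkb2 are thus statements relative to the other genes on the array, and only the fall of Nfkbia passed the threshold on either footing.

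**Figure D3:**
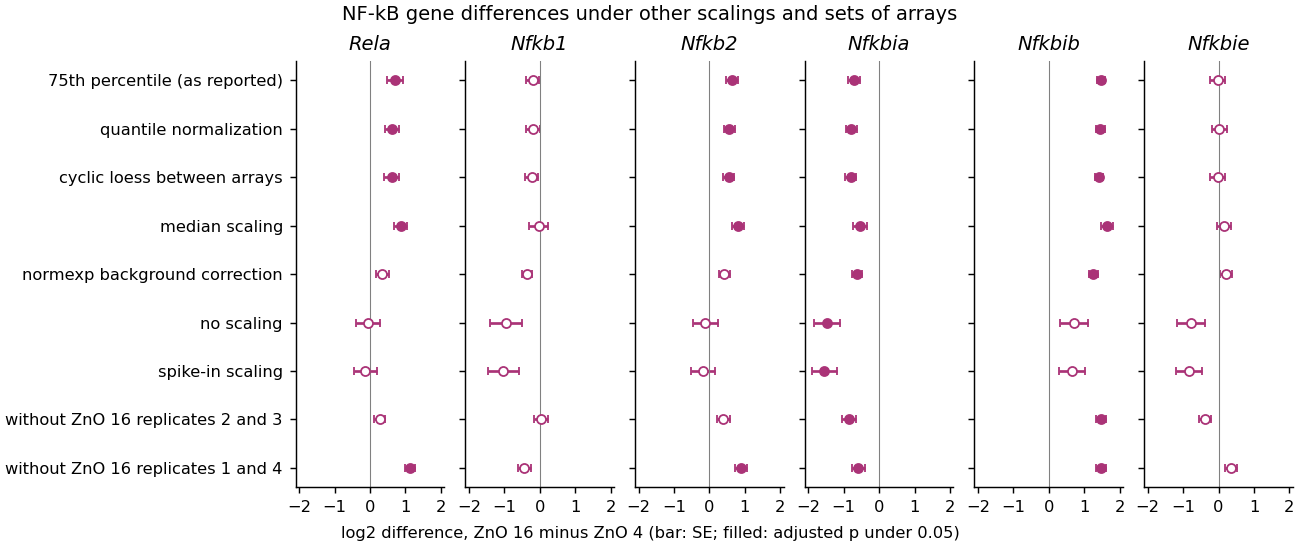
Log2 difference, 16 minus 4 µg/mL, of each measured NF-kB gene (panels) under other scalings, another background correction and with 2 arrays of the higher dose left out (rows); points are fitted differences, bars the SE, filled points have an adjusted p under 0.05. Nfkbia is below 0 and Nfkbib above 0 in every row, and Rela and Nfkb2 change side without scaling and with spike-in scaling.

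The difference between 2 genes on the same array does not move when 1 value per array is subtracted, as in scaling to a percentile or to the spike-in controls. The level of this difference has no meaning of its own, since the 2 probes differ, but its change between the doses does. Nfkbib minus Nfkbia was -1.63, -1.98, -1.84 and -1.41 at 4 µg/mL and 0.40, 0.32, 0.38 and 0.80 at 16 µg/mL. The lowest value at the higher dose was 1.73 above the highest at the lower dose, and the change was 2.19 (SE 0.16). With this processing the balance between these inhibitor transcripts thus moved 4.56-fold toward Nfkbib. Another background correction or normalization can move such changes. Nfkbib, Nfkbia and Rela differed by 1.47, -0.72 and 0.70 here. They differed by 1.26, -0.63 and 0.35 with normexp, and by 1.46, -0.78 and 0.63 with quantile normalization. Rela minus Nfkbia changed by 1.42 (SE 0.25), from -1.10 to -0.55 at the lower dose to -0.057 to 0.87 at the higher, with no overlap. Nfkb2 minus Nfkbia changed by 1.36 (SE 0.20), also without overlap. Rela minus Nfkb2 changed by 0.061 (SE 0.14), with overlapping values, so the data do not separate the changes of these subunits. Rela minus Nfkb1 changed by 0.90 (SE 0.39): it was 0.92 to 1.28 at the lower dose, and at the higher dose 1.34 and 1.39 on replicates 1 and 4 but 2.66 and 2.72 on replicates 2 and 3. The gene pairs were chosen with the single-gene differences known, and these changes carry no test of their own.

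**Figure D4:**
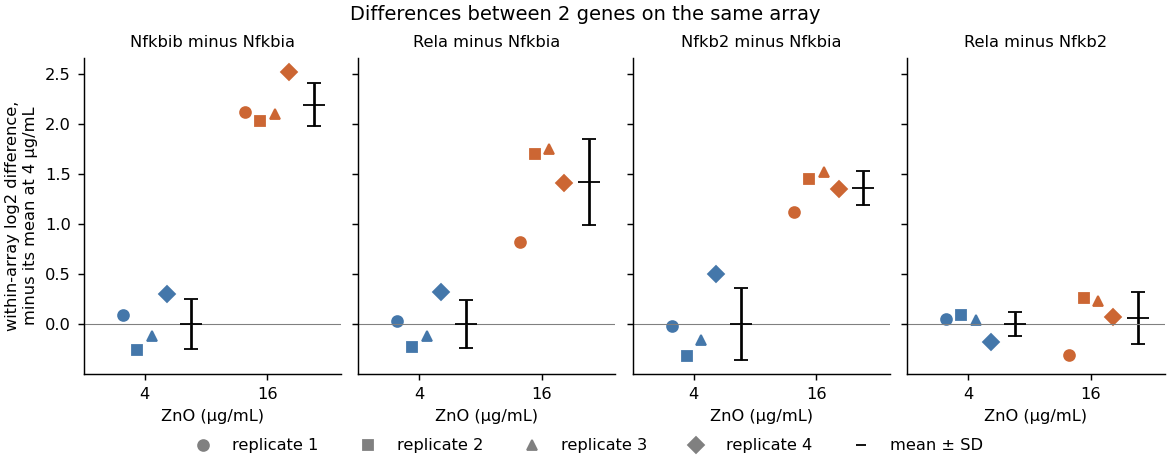
Log2 difference between 2 genes on the same array, shown relative to its mean at 4 µg/mL (vertical axis), at both doses; symbols are replicates and bars the mean ± SD. The first 3 panels are separated by dose on every array, by a mean of 2.19, 1.42 and 1.36, and Rela minus Nfkb2 is not.

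The array profiles of the group were not alike as a set. The distance between profiles was taken as the root mean square difference over 8 arrays after centring each gene on its own mean. Rela and Nfkb2 were each other's nearest in the group (0.18), and 200 other genes with a symbol were nearer to Rela than Nfkb2 was. The farthest pair was Nfkbia and Nfkbib (1.11). Among all genes with a symbol, the nearest profile to Nfkbib was that of Wipi2, a gene of autophagosome formation (distance 0.098, difference 1.45), and the nearest to Nfkbia was that of Mrc2, a collagen-binding receptor of the mannose receptor family (0.13, difference -0.58, not past the threshold with median scaling, at -0.41, or as the mean of its probes, at -0.14; its other probe was at 0.30). Nearest to Nfkb2 was Xab2, a splicing and DNA repair gene (0.062, difference 0.71), which missed the threshold without replicate 1 of the lower dose (0.64, adjusted p = 0.0508) and without replicates 2 and 3 of the higher dose (0.42, adjusted p = 0.118). The nearest to Rela was Atf6b, a transcription factor of endoplasmic reticulum stress (0.071), which differed by 0.67 and just missed the threshold (adjusted p = 0.0512). Without replicates 2 and 3 of the higher dose Atf6b differed by 0.19 (adjusted p = 0.395). Without replicates 1 and 4 it differed by 1.15 (adjusted p = 0.000907).

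The other steps of the pathway were read from lists of genes, given here by role. Among 10 tested kinases and adaptors around IKK 4 were called higher and 1 lower, with a median of 0.33, beside 19.8% higher and 21.9% lower over all genes. The count includes Map3k14, which was kept only through the higher dose. With only genes well above background on all 8 arrays, 8 were tested. Of these 3 were called higher and 1 lower, with a median of 0.12, where 42.1% of all genes were called. Map3k14 (NIK), the kinase that starts the non-canonical pathway and so the processing of the Nfkb2 product, was at -6.07, -5.34, -5.42 and -5.19 at 4 µg/mL, not well above background on any of these arrays, and at -1.80, -0.89, -0.92 and -1.51 at 16 µg/mL, well above background on all 4. With dim signals raised to the lowest signal well above background on each array, it rose by 3.01, or 8.06-fold. With normexp background correction the rise was 1.47 on the same log2 scale, so its size depends on how background is treated. Its probe was kept only because it was well above background at the higher dose. That favours a call in this direction, so no p-value is given for it. Tank and Azi2, adaptors of the IKK-related kinase Tbk1, rose by 0.94 (SE 0.12) and 1.01 (SE 0.21), relative to the other genes of the array; on the spike-in scale they were at 0.11 (adjusted p = 0.818) and 0.18 (adjusted p = 0.736). Map3k8, a MAP kinase kinase kinase that is held by the Nfkb1 precursor, fell by 1.41 (SE 0.15): its levels were -0.15, 0.13, 0.13 and -0.27 at 4 µg/mL and -1.38, -1.33, -1.67 and -1.41 at 16 µg/mL, with no overlap. The IKK subunits themselves did not pass the test, with Chuk at 0.13 (adjusted p = 0.605), Ikbkb at 0.11 (adjusted p = 0.716) and Ikbkg at -0.32 (adjusted p = 0.131). The IKK-related kinase Ikbke was called higher (0.53, SE 0.16, adjusted p = 0.0234), with overlapping doses.

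Among 13 tested genes of the ubiquitin steps 4 were called higher and 0 lower, with a median of 0.40. Fewer of them were called than the 41.7% over all genes would give, so the count is not a result about these steps. Tnip1, an adaptor that brings Tnfaip3 to ubiquitin chains, rose by 0.65 (SE 0.11), from 0.84 to 0.92 at the lower dose to 1.41 to 1.68 at the higher. Cul1, the scaffold of the ligase that marks phosphorylated IkB, also rose by 0.65 (SE 0.18), a call lost without replicates 1 and 4 of the higher dose (0.45, adjusted p = 0.0855). Tax1bp1, another adaptor of Tnfaip3, rose by 0.57 (SE 0.18), a call lost without replicate 2 or 3 of the lower dose or 3 or 4 of the higher (0.47 to 0.53, adjusted p of 0.0539 to 0.0768). Of 3 other IkB-type genes 1 was called higher, Nkiras2, a Ras-like protein that binds IkB (0.68, SE 0.17); without replicates 2 and 3 of the higher dose this call was lost (0.42, adjusted p = 0.0678). As for Rela, the differences of Tnip1, Cul1, Tax1bp1 and Nkiras2 were below 0 without scaling or on the spike-in scale (-0.26 to -0.073), where none passed the threshold.

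Of 23 tested textbook target genes of NF-kB in macrophages 10 were called higher and 6 lower, with a median of 0.24, beside 19.8% higher and 21.9% lower over all genes. Of the called targets Bcl2l1 and Birc3 were kept only through the higher dose and Tnfaip2 only through the lower, which favours such calls. With only genes well above background on all 8 arrays, 19 targets were tested. Of these 8 were called higher and 4 lower, where 42.1% of all genes were called. The largest rises were in Ier3, a survival gene of the early stress response (2.05, SE 0.20), Gadd45b, a stress and DNA damage gene (2.01, SE 0.19), and Zc3h12a, a ribonuclease that degrades inflammatory messages (1.44, SE 0.22; on the spike-in scale 0.61, adjusted p = 0.190). The largest falls were in Tnfaip2 and in the chemokines Ccl22 (-2.25, SE 0.43; its other tested probe differed by -0.27) and Cxcl10 (-2.16, SE 0.27). Tnfaip2 was at 0.49 to 1.06 at the lower dose and was well above background on 1 of 4 arrays at the higher dose. With dim signals raised to the lowest signal well above background it fell by 4.43. Its probe was kept only through the lower dose, which favours a call in this direction, so no p-value is given for it. Many targets answer to other factors as well, and NF-kB activity itself was not measured. On the spike-in scale the targets had 2 called higher and 9 lower, the ubiquitin steps 0 and 1, and the kinases and adaptors 1 and 3, so these splits hold relative to the other genes of the array. Of 12 tested macrophage markers 1 was called higher (Spi1, 0.81), 3 lower (Cd68, -1.74, Itgam, -0.52, and Itgb2, -0.48) and 8 were not called. Their median was 0.0026. Fewer of them were called than the 41.7% over all genes would give, so the count is not a result about the markers. The part of these 4 differences in the results was not tested.

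**Figure D5:**
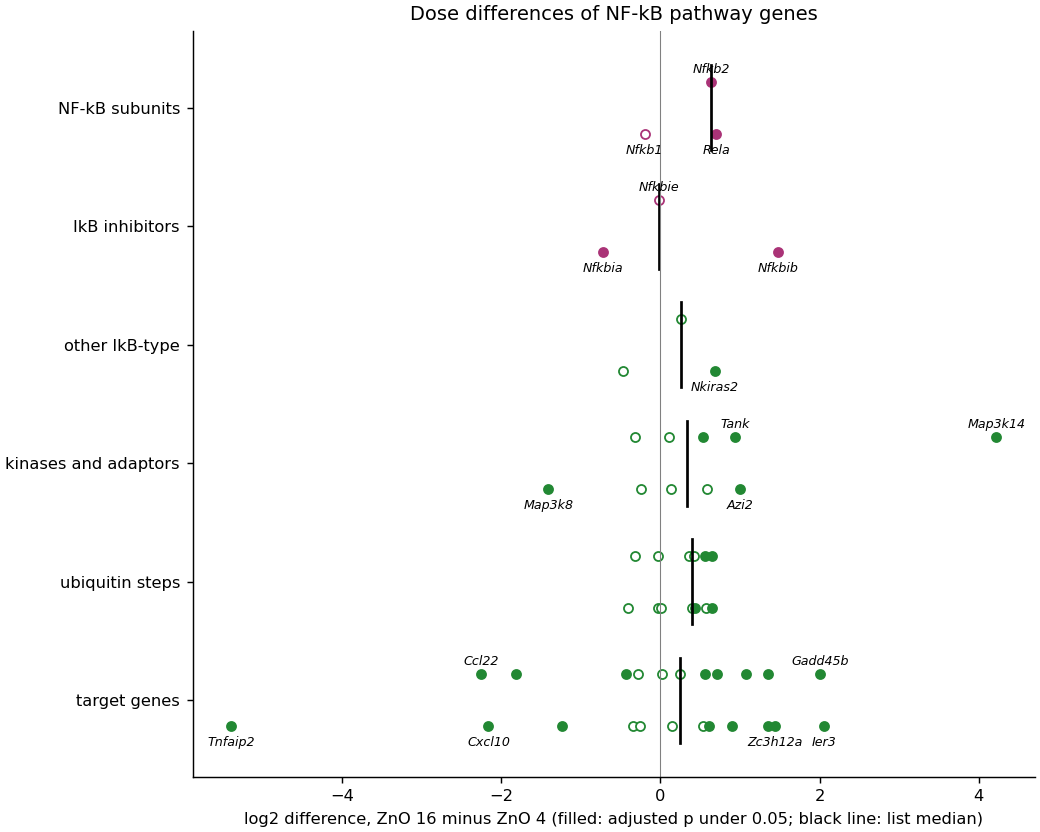
Log2 difference, 16 minus 4 µg/mL (horizontal axis), of each tested gene of the NF-kB subunits, inhibitors, upstream steps and targets (rows, points spread vertically only for legibility); filled points have an adjusted p under 0.05 and the black lines are list medians. Map3k14 lies far to the right and Tnfaip2 far to the left, both measured near background at 1 dose, and the ubiquitin steps stay between -0.41 and 0.65. The targets Bcl2l1 (1.35) and Birc3 (1.08) were also near background at the lower dose.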

How the data were processed

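Cy3-labelled RNA was hybridised to 1-colour Agilent arrays, per the labels' protocols. The authors deposited 1 scanner file per array; the submitters' processing notes name Agilent Feature Extraction 11.0.1.1. The processed signal is a linear intensity, background-subtracted and detrended within the array per the file headers, with no scaling between arrays; the other deposited columns used are raw median intensities and flags of 0 or 1, which mark a spot as well above background, saturated or an outlier.

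The processed signal was put on a log2 scale and each array's 75th percentile, taken without control spots, was subtracted. Non-uniform and outlier spots were dropped, replicate spots averaged, and probes kept when well above background on at least 3 of 4 arrays of 1 dose; the brightest probe stood for its gene. Names came from RefSeq transcripts of GRCr8 (21109 of 45598 probes, 46.3%); the file headers name another build. Differences were fitted with limma 3.58.1 in R 4.3.3 (eBayes with trend, two-sided, Benjamini-Hochberg, threshold 0.05). The fit was first tested on simulated data with 100 changed genes. It recovered 49% of them when the change was 1 on the log2 scale and 88% when it was 2. No spot was saturated; the number of arrays limits the precision.

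The genes, lists and alternatives were chosen with earlier results of these data known. Genes named are all listed genes with a probe, the 3 largest called rises and falls of each pathway list, and the nearest profile to each called gene. Other genes named (the IKK subunits, Ikbke and the cell markers) were added by role, and Bcl2l1 and Birc3 for their signal near background. The list of coregulators is not reported here. Alternatives covered background correction, scaling, filters, flags, probe choice, masked areas, the variance model, arrays left out and the replicate number as a block.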

Additional observations from a re-analysis of the deposited data

Results flagged for a closer look

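At 4 µg/mL the 4 levels of Nfkbie were -1.58, -1.57, -1.57 and -1.34. Replicate 4 stood apart from the other 3, its gap to the nearest being 0.95 of the whole range, above Dixon's critical value for 4 samples. The 6 tested probes gave 12 groups of 4, and chance flags about 1 in 20 such groups. Without replicate 4 of the lower dose the Nfkbie difference stayed short of the threshold.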

How the results depend on the processing

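The count of NF-kB genes called higher was 3. It was 1 with normexp background correction, 0 with no scaling, 0 with spike-in scaling and 1 without replicates 2 and 3 of the higher dose, a choice made after seeing the data, as was leaving out replicates 1 and 4 of that dose; leaving out 1 array at a time gave 1 to 3. The count called lower was 1 in all 24 alternatives. Nfkbib and Nfkbia kept their direction in all of them, with 1.42 to 1.52 and -0.80 to -0.59 when 1 array was left out; Nfkbib missed the threshold without scaling (0.72, adjusted p = 0.148) and with spike-in scaling. With normexp Rela differed by 0.35 (adjusted p = 0.167) and Nfkb2 by 0.43 (adjusted p = 0.0630). Among called differences, those that changed sign without scaling and with spike-in scaling were, in that order, Nfkb2 (-0.11 and -0.19), Rela (-0.052 and -0.13), Nkiras2 (-0.073 and -0.15), Tnip1 (-0.10 and -0.17), Cul1 (-0.10 and -0.18), Tax1bp1 (-0.19 and -0.26) and Xab2 (-0.040 and -0.11). Differences short of the threshold also changed sign: Atf6b (-0.083 and -0.16) under these settings, Nfkb1 without replicates 2 and 3 of the higher dose (0.035), and Nfkbie with normexp (0.22), median scaling (0.15), quantile normalization (0.020) and several sets of arrays. Without scaling and with spike-in scaling, in that order, calls were lost for Tank (0.18 and 0.11), Azi2 (0.25 and 0.18), Zc3h12a (0.69 and 0.61) and Wipi2 (0.69 and 0.62). These settings also turned the split of all calls from 2669 higher and 2943 lower to 229 and 4417 without scaling and 220 and 5298 with spike-in scaling; with median scaling it was 3405 and 1980, and with normexp 2776 and 1996. The cause was not tested. Same-numbered arrays of the 2 doses deviated with correlations of 0.25, 0.40, -0.22 and -0.029. Replicates 1 and 2 of the lower dose correlated best with the same number at the higher dose, replicate 3 with replicate 4, and replicate 4 with replicate 3. These values do not settle whether same-numbered arrays belong together. With the replicate number as a block 5472 genes were called, against 5612 without it, and in the group 3 were called higher and 1 lower, as without it; the kinases and adaptors had 3 higher and 1 lower, the targets 9 higher and 5 lower, and Atf6b passed the threshold (0.67, adjusted p = 0.0431). The IKK subunits, Ikbke, Bcl2l1, Birc3 and the cell markers were not followed gene by gene across settings. Signal over background limits Map3k14, Bcl2l1 and Birc3 at the lower dose and Tnfaip2 at the higher.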
